A study of Mus musculus with 14 samples.

Results

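The TSC22 domain family comprises 4 genes in the mouse, Tsc22d1, Tsc22d2, Tsc22d3 and Tsc22d4, and was taken here as the array rows mapped to those symbols. Each gene had exactly 1 row, so the family was 4 of the 19505 named genes measured. The family was picked with the knockout against control difference of these arrays in view, in which Tsc22d1 stood near the top. Its knockout differences are therefore given as a description, without a test. Liver RNA of 14 samples was hybridised to Affymetrix gene arrays, 6 control and 8 knockout. All were male C57BL/6-background mice, given as 4 months old, homozygous for floxed AMPK alpha 1 and alpha2, the catalytic subunits of the energy-sensing kinase AMPK (genes Prkaa1 and Prkaa2). All ate a high-fat diet from 6 weeks of age for 4 weeks, received an AAV8 vector at 10 weeks, then had 3 weeks of metformin (50 mg/kg daily), the common diabetes medicine, and were fasted for 16 h. These times fall short of the stated age of 4 months, and the labels do not explain the gap. Controls received AAV8-TBG-empty vector and knockouts AAV8-TBG-Cre. The TBG promoter directs Cre to hepatocytes, so other liver cells keep AMPK, and both groups carry the floxed alleles and had metformin. The labels do not say that each sample came from its own mouse, so the spread between samples may be partly technical.

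TSC22 proteins share a conserved TSC box followed by a leucine zipper, through which they pair with each other and with other proteins. They lack a classical DNA-binding domain and act mostly through the partners they bind. Each gene makes short and long forms in a way that differs between members. Tsc22d1 was first found as a gene induced by TGF-beta. Tsc22d3 encodes GILZ, the glucocorticoid-induced leucine zipper, which binds and restrains NF-kB and AP-1 and is also a target of FOXO factors. The long forms of Tsc22d1, Tsc22d2 and Tsc22d4 bind the pseudokinases NRBP1 and NRBP2, and hepatic Tsc22d4 has been studied for its part in lipid release and insulin sensitivity.

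Promoter sequence was at hand for Tsc22d1 and Tsc22d3, the members with the largest knockout differences, and is shown because Tsc22d3 is a textbook glucocorticoid target. Each line gives the 250 bases before a RefSeq transcript start (build GRCm38.p6), 5′ to 3′ on the gene's strand. The outermost start of each gene is shown, and for Tsc22d1 also the window that held a glucocorticoid receptor core. Capitals mark that core, which reads AGAACA on one strand and, as its reverse complement on the other strand, TGTTCT.
Tsc22d1 outermost, chr14:76414711-76414960, plus strand: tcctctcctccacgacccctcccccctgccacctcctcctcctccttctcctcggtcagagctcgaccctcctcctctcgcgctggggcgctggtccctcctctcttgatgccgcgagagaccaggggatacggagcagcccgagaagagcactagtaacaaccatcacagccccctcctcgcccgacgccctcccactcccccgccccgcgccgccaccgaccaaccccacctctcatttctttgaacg
Tsc22d1 downstream, chr14:76503976-76504225, plus strand: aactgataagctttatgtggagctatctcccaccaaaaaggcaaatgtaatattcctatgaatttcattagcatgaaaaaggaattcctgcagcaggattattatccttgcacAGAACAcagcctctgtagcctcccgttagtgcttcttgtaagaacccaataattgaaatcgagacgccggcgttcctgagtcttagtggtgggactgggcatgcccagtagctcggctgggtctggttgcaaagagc
Tsc22d3 outermost, chrX:140600523-140600772, minus strand: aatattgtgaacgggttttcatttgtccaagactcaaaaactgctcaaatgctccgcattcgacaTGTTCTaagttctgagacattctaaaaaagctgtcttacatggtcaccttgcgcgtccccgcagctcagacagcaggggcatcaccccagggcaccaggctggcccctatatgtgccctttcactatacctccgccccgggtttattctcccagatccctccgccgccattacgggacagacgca
The outermost Tsc22d1 window held no match to any of 5 motifs searched on both strands. These were the forkhead core bound by FOXO factors (GTAAACA), the glucocorticoid receptor core, the core of the cAMP response element (TGACG), the palindromic element bound by SMAD proteins (GTCTAGAC) and the E-box bound by clock and MYC family factors (CACGTG). Each printed window held at most 1 match, so no matches overlapped. AGAACA began 137 bases before the downstream Tsc22d1 start, and TGTTCT 185 bases before the outermost Tsc22d3 start. The Tsc22d3 windows at starts further downstream (chrX:140542669-140542918 and chrX:140548572-140548821) held no receptor core and are not shown. The receptor core was present in 16.1% of 32851 RefSeq windows of this length. The share was 3.17% for the forkhead core, 17.8% for the cAMP response core, 0.167% for the SMAD element and 6.02% for the E-box. The 5 Tsc22d1 windows and 3 Tsc22d3 windows together held 5 matches, with none to the forkhead core or the SMAD element. The others were an E-box before a Tsc22d1 start and a cAMP response core before a start of each gene. GC content was 66.8% in the outermost Tsc22d1 window and 52.4% in that of Tsc22d3, against a median of 52.4% over all windows. Which transcript start was in use in these livers was not measured, and a match in letters is not a measured binding site.

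Clustering split the arrays into 2 sets, each with 3 controls and 4 knockouts, and the labels name no such sets. Set 1 held controls 1 to 3 and knockouts 1 to 4, and set 2 the rest. Arrays correlated at 0.988 to 0.994 within a set and at 0.951 to 0.963 across sets. Controls 1 and 4 stood apart on the second principal component, with the lower of their scores at 23.7, against -14.0 to 9.63 for the other 12 arrays. Prkaa2 and Prkaa1 were below every control of the own set in 8 of 8 knockouts, at differences of -1.13 ± 0.08 and -0.67 ± 0.13 (SE). Whether these rows cover the deleted exons was not determined here. The lowest mean of the 8 hepatocyte markers in any array was 12.5 on the log2 scale. Expression values below are log2 values, and a difference of 1 on that scale is a doubling.

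Tsc22d1 was higher in the knockout livers, with no overlap between the groups. In set 1 its level was 9.93, 10.42 and 10.51 in controls 1 to 3 and 11.43, 11.24, 11.55 and 11.33 in knockouts 1 to 4. In set 2 it was 9.87, 10.40 and 11.07 in controls 4 to 6 and 11.15, 11.18, 11.58 and 11.39 in knockouts 5 to 8. The highest control, control 6 at 11.07, lay just below the lowest knockout, knockout 5 at 11.15, while controls 1 and 4 were the lowest arrays. All 8 knockouts were above all 6 controls, which held for 0.123% of all genes, and all 8 were above every control of their own set, which held for 0.774%. The knockout minus control difference was 0.99 ± 0.15 (SE, limma with the set as a term, 6 control and 8 knockout samples), a 1.99-fold level. It was 1.10 ± 0.15 in set 1 and 0.88 ± 0.24 in set 2. The control samples were also more spread than the knockouts. The SD was 0.31 (n = 3) and 0.60 (n = 3) in the controls of sets 1 and 2, against 0.14 (n = 4) and 0.20 (n = 4) in the knockouts.

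In order of difference, Tsc22d1 ranked 5th from the highest of 19505 genes. Directly above it stood Slc35f2, a solute carrier gene, at 1.04 ± 0.17, and Igfbp1, the insulin-repressed IGF-binding protein gene, at 1.08 ± 0.36. Directly below it stood Noct, the circadian nocturnin gene, at 0.98 ± 0.15, and Krt23, a keratin gene, at 0.93 ± 0.24. Igfbp1 and Krt23 did not pass the threshold on the adjusted p of 0.05. Tsc22d1 was 1 of the 84 genes called higher by limma with the set as a term (0.431% of all genes). No other member was called higher or lower, where 0.272% of all genes were called lower and 0.702% in either direction. As the family was chosen on this contrast, nothing is read from these counts. The call was kept with each array left out in turn and lost without knockouts 7 and 8 together, where the difference was 0.94 ± 0.17. These refits reuse the values that picked the family, so a kept call is no separate support. Without the set term 0 members and 0 genes were called, at the same difference for Tsc22d1. Tsc22d1 had a small set gap of 0.03 (set 2 minus set 1).

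**Figure D1:**
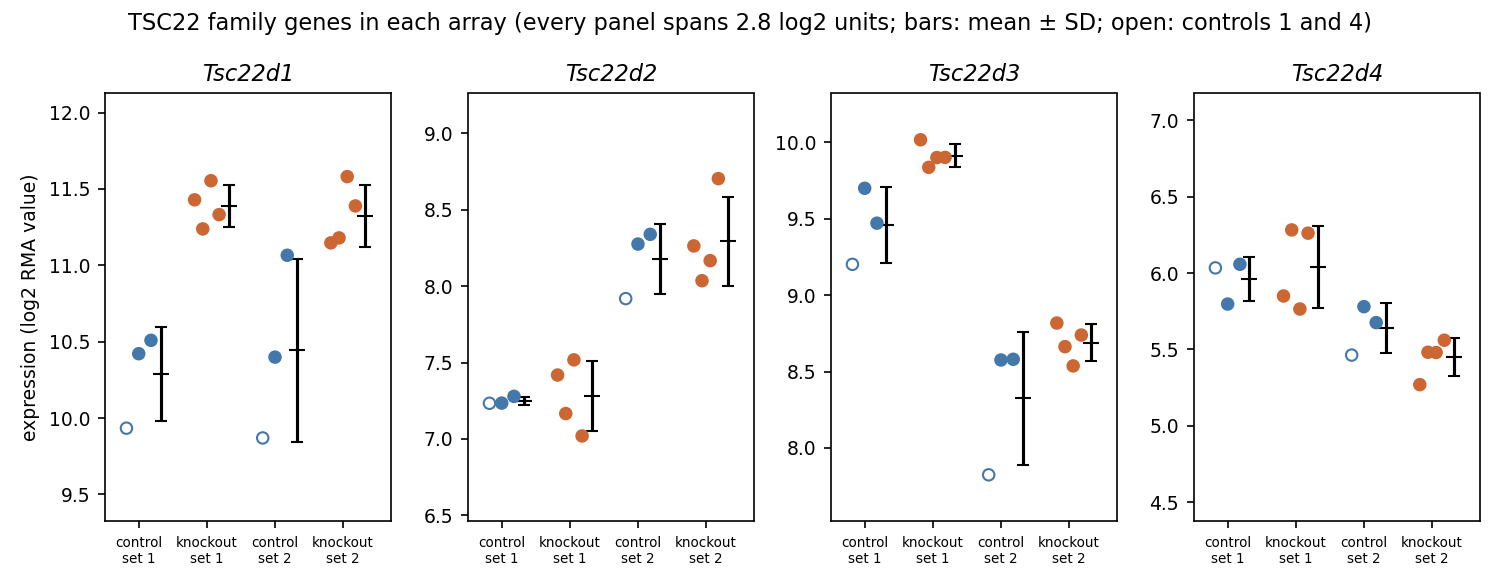
Expression (log2 RMA value, vertical axis) of the 4 TSC22 genes in each array, by array set and group; points are arrays, bars are the mean ± SD of 3 controls or 4 knockouts, and open points are controls 1 and 4. Every Tsc22d1 knockout point lies above every control point, while Tsc22d2 and Tsc22d4 points of the groups overlap in each set.

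Tsc22d3, the glucocorticoid-induced GILZ gene, had a smaller positive difference. In set 1 its level was 9.20, 9.70 and 9.47 in controls 1 to 3 and 10.02, 9.84, 9.90 and 9.90 in knockouts 1 to 4, with no overlap. In set 2 it was 7.82, 8.58 and 8.58 in controls 4 to 6 and 8.82, 8.66, 8.54 and 8.74 in knockouts 5 to 8. There knockout 7 lay below controls 5 and 6, and the other knockouts lay above all 3 controls, so 7 of 8 knockouts were above every control of their own set. Exactly 7 of 8 did so for 1.4% of all genes, and at least 7 of 8 for 2.18%. The difference was 0.41 ± 0.12 (SE), or 1.33-fold, with 0.46 ± 0.12 in set 1 and 0.36 ± 0.19 in set 2. Tsc22d3 was not among the genes called and ranked 125th from the highest. Its set gap of -1.19 was the largest in size among the 4 members and exceeded its knockout difference. Its controls had an SD of 0.25 (n = 3) and 0.44 (n = 3) in sets 1 and 2, against 0.08 (n = 4) and 0.12 (n = 4) in the knockouts.

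The differences of Tsc22d1 and Tsc22d3 were smaller without the controls that stood apart. Control 1 minus the mean of the remaining controls in its set was -0.53 for Tsc22d1 and -0.38 for Tsc22d3, and for control 4 these values were -0.86 and -0.75. Without both arrays the difference was 0.76 ± 0.13 for Tsc22d1, and 0.22 ± 0.08 for Tsc22d3, which is under the 0.41 of all arrays by over 1.5 times. Leaving out each array in turn gave 0.88 (without control 4) to 1.14 (without control 6) for Tsc22d1, and 0.31 to 0.47 for Tsc22d3 with the same arrays at the ends. Marker means of other liver cells were lower in these controls than the mean of the other controls of their set, less so in control 4. On the same scale the mean of 10 endothelial markers was at -0.98 for control 1 and -0.64 for control 4, that of 10 stellate cell markers -0.60 and -0.20, and that of 8 Kupffer cell and macrophage markers -0.79 and -0.36. The 4 bile duct markers were at -0.64 and -0.14, and the 6 lymphocyte markers at -0.41 and -0.07. For the bile duct markers control 3 was high, at 0.76 relative to the control mean of its set. Control 2 was at -0.34 and control 1 at -0.43 there. The 8 hepatocyte markers were at 0.05 and 0.01 for controls 1 and 4. In whole tissue, fewer cells of a type and less RNA per cell cannot be told apart. Correlations of the members with marker means are given below, but how much of the TSC22 values came from these cells was not tested.

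Tsc22d2, which encodes a long partner of the NRBP pseudokinases, had overlapping levels in control and knockout livers. In set 1 its level was 7.23, 7.23 and 7.28 in controls 1 to 3 and 7.42, 7.17, 7.52 and 7.02 in knockouts 1 to 4. In set 2 it was 7.92, 8.28 and 8.34 in controls 4 to 6 and 8.26, 8.04, 8.17 and 8.70 in knockouts 5 to 8. Knockouts lay on both sides of the controls in set 1 and overlapped them in set 2. The difference was 0.07 ± 0.11 (SE), with 0.03 ± 0.13 in set 1 and 0.11 ± 0.18 in set 2. The set gap was 0.98, against the -1.19 of Tsc22d3, so members differed in the direction of the gap.

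Tsc22d4, the member studied in liver lipid and glucose handling, also showed overlapping groups. In set 1 its level was 6.03, 5.80 and 6.06 in controls 1 to 3 and 5.85, 6.28, 5.77 and 6.26 in knockouts 1 to 4. In set 2 it was 5.46, 5.78 and 5.68 in controls 4 to 6 and 5.27, 5.48, 5.48 and 5.56 in knockouts 5 to 8. Its mean level of 5.77 lay within the range of the array medians, 5.73 to 5.87. The difference was -0.06 ± 0.10 (SE), with 0.08 ± 0.15 in set 1 and -0.19 ± 0.13 in set 2, and the set gap was -0.48. Lcn13, a secreted lipocalin gene tied to hepatic Tsc22d4, was not analysed here.

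**Figure D2:**
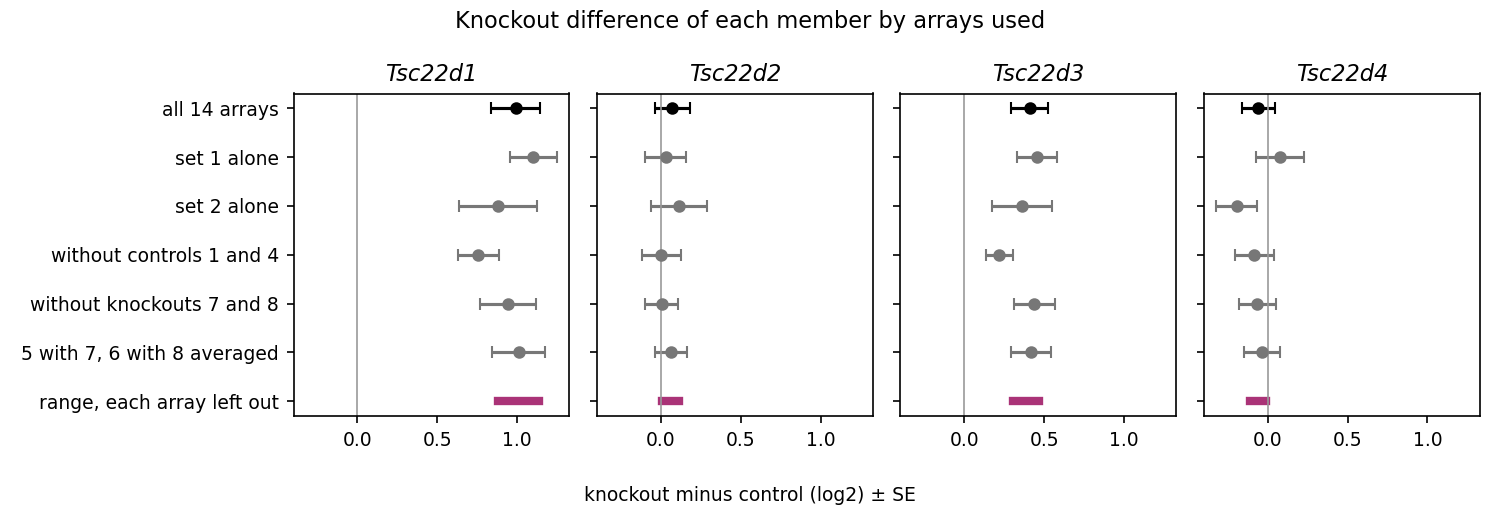
Knockout minus control difference (log2, horizontal axis) of each TSC22 gene with its SE, from all 14 arrays and from subsets of them; the bottom bar spans the values with each array left out in turn. Tsc22d1 runs from 0.76 to 1.14 over the arrays shown and Tsc22d3 from 0.22 to 0.47, while Tsc22d2 and Tsc22d4 stay near 0.

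Whether the knockout difference itself differed between the sets was tested by the interaction term in limma, which is separate from the contrast that picked the family. None of the 4 members passed. The set 2 minus set 1 difference of the knockout effect was -0.22 ± 0.31 for Tsc22d1, 0.08 ± 0.23 for Tsc22d2, -0.09 ± 0.24 for Tsc22d3 and -0.27 ± 0.20 for Tsc22d4 (SE; limma adjusted p = 0.998 for each). Over all genes 0 passed, with 943 at an unadjusted p under 0.05 (4.83%). With 3 controls and 4 knockouts per set, the SEs of 0.20 to 0.31 limit what this test can detect.

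No pair of members passed a test of varying together from array to array. Each array's deviation from the mean of its own set and group was correlated between members over the 14 arrays, with exact two-sided permutation of arrays within set and group (20736 arrangements, 6 pairs). The highest Pearson correlation was between Tsc22d1 and Tsc22d3, at r = 0.665 (exact permutation p = 0.222, adjusted p = 0.445) and Spearman rho = 0.451 (exact permutation p = 0.243, adjusted p = 0.486). It was 0.751 in set 1 and 0.639 in set 2, and fell to 0.251 without controls 4 and 6, the arrays farthest from the median of Tsc22d1. It was -0.263 without controls 1 and 4. The former value kept the deviations from the means of all arrays, while for the latter the means were taken anew. That relation therefore rested on those arrays. Tsc22d2 had r = 0.493 with Tsc22d1 (exact permutation p = 0.0945, adjusted p = 0.284) and r = 0.488 with Tsc22d3 (exact permutation p = 0.0626, adjusted p = 0.284). By Spearman these pairs were the higher ones, at rho = 0.538 with Tsc22d1 (exact permutation p = 0.0751, adjusted p = 0.225) and rho = 0.565 with Tsc22d3 (exact permutation p = 0.0492, adjusted p = 0.225). Tsc22d4 had r of 0.0499 with Tsc22d1, -0.160 with Tsc22d2 and 0.0341 with Tsc22d3, and its r with each was negative in set 1 and positive in set 2.

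Glucocorticoid-induced genes, the company in which Tsc22d3 is best known, did not move one way. Of 23 measured genes, 2 rose and 1 fell in limma with the set as a term (0.702% of all genes were called), 14 differences were positive (50.6% of all genes were) and 9 negative, and they ran from -1.15 to 1.08. Cdkn1a, the cell cycle inhibitor p21 gene, rose by 0.75 ± 0.11 (limma adjusted p = 0.00873), and Angptl4, which encodes an inhibitor of lipoprotein lipase, rose by 0.55 ± 0.08 (limma adjusted p = 0.00873). Mt1, a metal-binding metallothionein gene, fell by 0.50 ± 0.11 (limma adjusted p = 0.0426). Each of these 3 genes moved the same way in 8 of 8 knockouts against every control of the own set. The Mt1 call was lost for 12 of 14 arrays left out in turn (limma adjusted p up to 0.112). Without controls 1 and 4 Angptl4 was at 0.49 (limma adjusted p = 0.0599) and Mt1 at -0.47 (limma adjusted p = 0.169), while Cdkn1a passed at 0.76 (limma adjusted p = 0.0274). Each of these genes has other known inducers besides glucocorticoids. The median difference was 0.04, against 0.00 over all genes. Fkbp5, Per1 and Zbtb16, which are classical receptor targets and were chosen for mention after their values were seen, were at -0.02 ± 0.18, -0.16 ± 0.12 and -0.03 ± 0.20 and did not pass. They do not stand for the list. Tdo2 was at 0.23 ± 0.06, above every control of the own set in 8 of 8 knockouts, Pck1 at 0.31 ± 0.10 and Tat at 0.23 ± 0.08. On the negative side, Lcn2 was at -1.15 ± 0.35 and Mt2 at -0.56 ± 0.16. These genes, also named after their values were seen, did not pass. Across arrays, Tsc22d3 deviations had r = 0.488 with the list mean (exact permutation p = 0.0951, adjusted p = 0.289 over 24 relations between members and lists). The rho was 0.587 (exact permutation p = 0.0436, adjusted p = 0.177), so neither passed after adjustment. Without controls 1 and 4 the r was 0.542.

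Of 10 measured genes of the glucocorticoid receptor machinery, 1 rose and none fell (0.702% of all genes were called), and the median difference was -0.05. The riser was Hsp90aa1, a chaperone that holds the receptor and many other clients, at 0.55 ± 0.09 (limma adjusted p = 0.0111). It was at 0.49 without controls 1 and 4 and did not pass there (limma adjusted p = 0.0675). Nr3c1, the receptor itself, and Hsd11b1, which regenerates active glucocorticoid in liver, were named after their values were seen; they were at 0.06 ± 0.09 and -0.11 ± 0.06 and did not pass.

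The TGF-beta pathway, from which Tsc22d1 takes its name, had 0 of 19 measured genes past the threshold, with differences from -0.11 to 0.23 and a median of -0.00. Over all genes 0.702% were called, so 0 calls say little in lists as short as those of this paragraph. The largest were Smurf2, a ubiquitin ligase that limits the pathway, at 0.23 ± 0.10, and Tgfb2, a ligand, at 0.17 ± 0.10. Of 11 genes of the NRBP and WNK cascade, the kinases and ion cotransporters tied to the long TSC22 proteins, 0 passed. The largest differences were those of Slc12a2, a sodium-potassium-chloride cotransporter, at -0.27 ± 0.14, and Stk39, the SPAK kinase that activates it, at -0.26 ± 0.13. Of the binding partners of GILZ, 3 were measured and 0 passed, with Jun, an AP-1 subunit, at 0.23 ± 0.16 and Rela, an NF-kB subunit, at -0.08 ± 0.08. The medians were -0.03 for the cascade and -0.08 for the partners.

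Of 17 FOXO and fasting genes, 1 rose and none fell in limma (0.702% of all genes were called). Of their differences 12 were positive (50.6% of all genes were), and the median was 0.08. The riser was G6pc, the glucose-6-phosphatase gene, at 0.73 ± 0.12 (limma adjusted p = 0.01), higher in 8 of 8 knockouts than in every control of the own set. It was at 0.59 without controls 1 and 4 and did not pass there (limma adjusted p = 0.0599). Without knockouts 7 and 8 none of the 5 list genes named here as passing did so. Igfbp1, which is also in the glucocorticoid list, was at 1.08 ± 0.36 and did not pass.

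**Figure D3:**
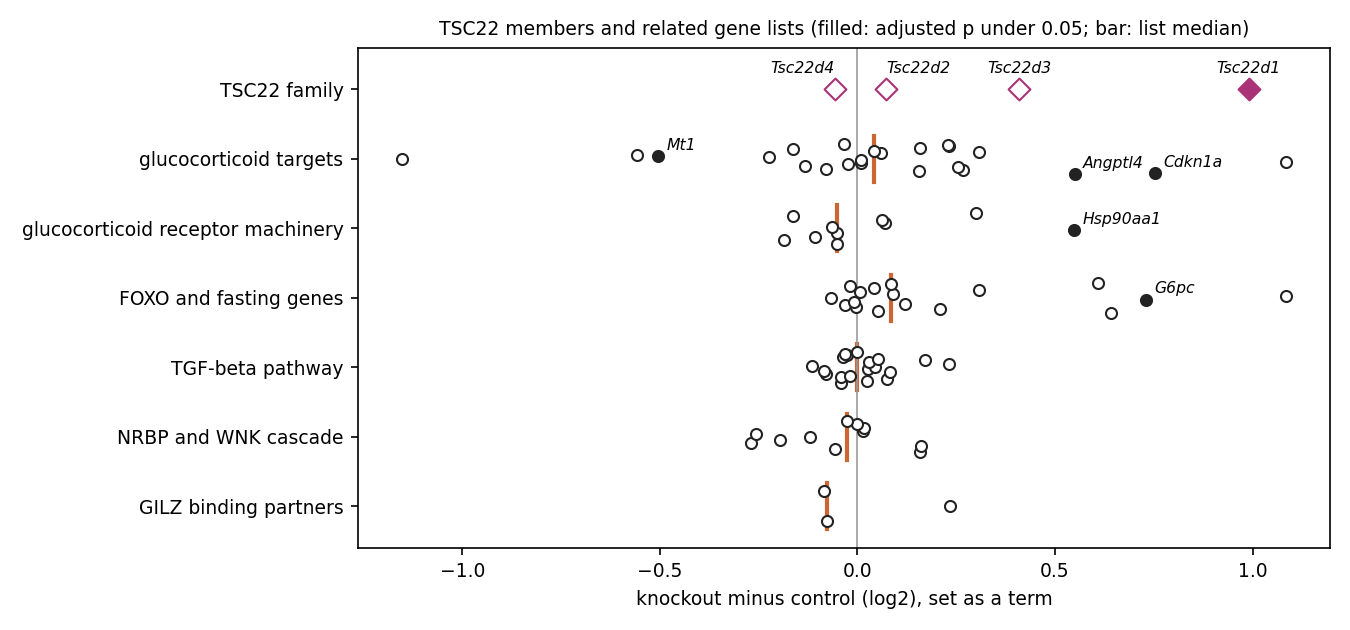
Knockout minus control difference (log2, horizontal axis) of the TSC22 members (diamonds) and of the genes of 6 related lists (circles), filled where limma with the set as a term gave an adjusted p under 0.05; orange bars are list medians. Tsc22d1 at 0.99 lies beyond every called list gene, and the TGF-beta pathway stays within -0.11 to 0.23.

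Between arrays of the same group and set, Tsc22d1 varied with the mean of the FOXO and fasting genes. Its deviations had r = 0.852 with the list mean (exact permutation p = 0.00125, adjusted p = 0.0301) and rho = 0.864 (exact permutation p = 0.00193, adjusted p = 0.0463), 1 of 24 relations between members and list means to pass. The r was 0.867 in set 1 and 0.921 in set 2 (7 arrays each), 0.837 without controls 4 and 6, and 0.807 without controls 1 and 4. Of the 17 genes, 15 had a positive r with Tsc22d1, from -0.116 to 0.917 with a median of 0.556. Bcl6, a transcriptional repressor gene, and Igfbp1 varied most, with an SD of deviations of 1.13 and 0.73 against at most 0.30 for the other 15, and so weigh most in the mean. With each gene scaled to the same SD the r was 0.814 (exact permutation, adjusted p = 0.0428), and it was 0.821 without Bcl6 (adjusted p = 0.0440) and 0.849 without Igfbp1 (adjusted p = 0.0313); the list without both was not tested. Deviations from group means do not enter the knockout contrast, but these relations were chosen after seeing the data. With 1 array left out the r stayed between 0.787 and 0.896, while the adjusted p passed 0.05 for 7 of 14 arrays (up to 0.174). Those arrays were controls 4, 5 and 6 and knockouts 1, 2, 3 and 7. Without controls 1 and 4 the exact permutation gave an adjusted p = 0.208. The other 4 relations whose Pearson r had an unadjusted p under 0.05 did not pass by exact permutation. Tsc22d1 had r = 0.665 with the GILZ binding partners (p = 0.0136, adjusted p = 0.110), r = 0.651 with the TGF-beta list (p = 0.0137, adjusted p = 0.110) and r = -0.585 with the receptor machinery (p = 0.0438, adjusted p = 0.206). Tsc22d2 had r = 0.700 with the glucocorticoid targets (p = 0.0401, adjusted p = 0.206).

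Among the 24 relations with cell type marker means none passed by exact permutation, with a lowest adjusted p of 0.186, and 4 had an unadjusted p under 0.05. The lowest was that of Tsc22d2 with the lymphocyte markers, at r = 0.474 (exact permutation p = 0.00776, adjusted p = 0.186) and rho = 0.648 (exact permutation p = 0.00246, adjusted p = 0.0590). Its r was 0.743 without controls 1 and 4 and 0.290 without knockouts 3 and 8, the arrays farthest from the median of Tsc22d2. Tsc22d1 had r = 0.659 with stellate cell markers (exact permutation p = 0.0399, adjusted p = 0.291), r = 0.637 with endothelial markers (exact permutation p = 0.0484, adjusted p = 0.291) and r = 0.580 with Kupffer cell and macrophage markers (exact permutation p = 0.0206, adjusted p = 0.248). Without controls 1 and 4 these values were 0.536 for stellate, 0.0961 for endothelial and 0.290 for macrophage markers, and without controls 4 and 6 they were 0.633, 0.594 and 0.725. The endothelial list mean, relative to the control mean of each set, ran from -0.65 to 0.35 in controls and from -0.32 to 0.23 in knockouts, with 0 of 10 genes called. The stellate list ran from -0.40 to 0.28 and from -0.26 to 0.17, with 0 of 10 called, and the macrophage list from -0.53 to 0.31 and from -0.47 to 0.43, with 0 of 8 called. The group means of the endothelial list differed by 0.00, those of the stellate list by -0.05 and those of the macrophage list by 0.05. The 6 lymphocyte markers were all on the positive side, where 50.6% of all genes were, and 0 were called. Their list mean was higher by 0.17 in knockouts. Relative to the control mean of each set it ran from -0.27 to 0.20 in controls and from 0.03 to 0.39 in knockouts. As a log2 level over both sets it was low, at 4.74 to 5.34 in controls and 4.95 to 5.31 in knockouts, below every array median (5.73 to 5.87). The 4 bile duct markers had a list mean difference of -0.08.

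**Figure D4:**
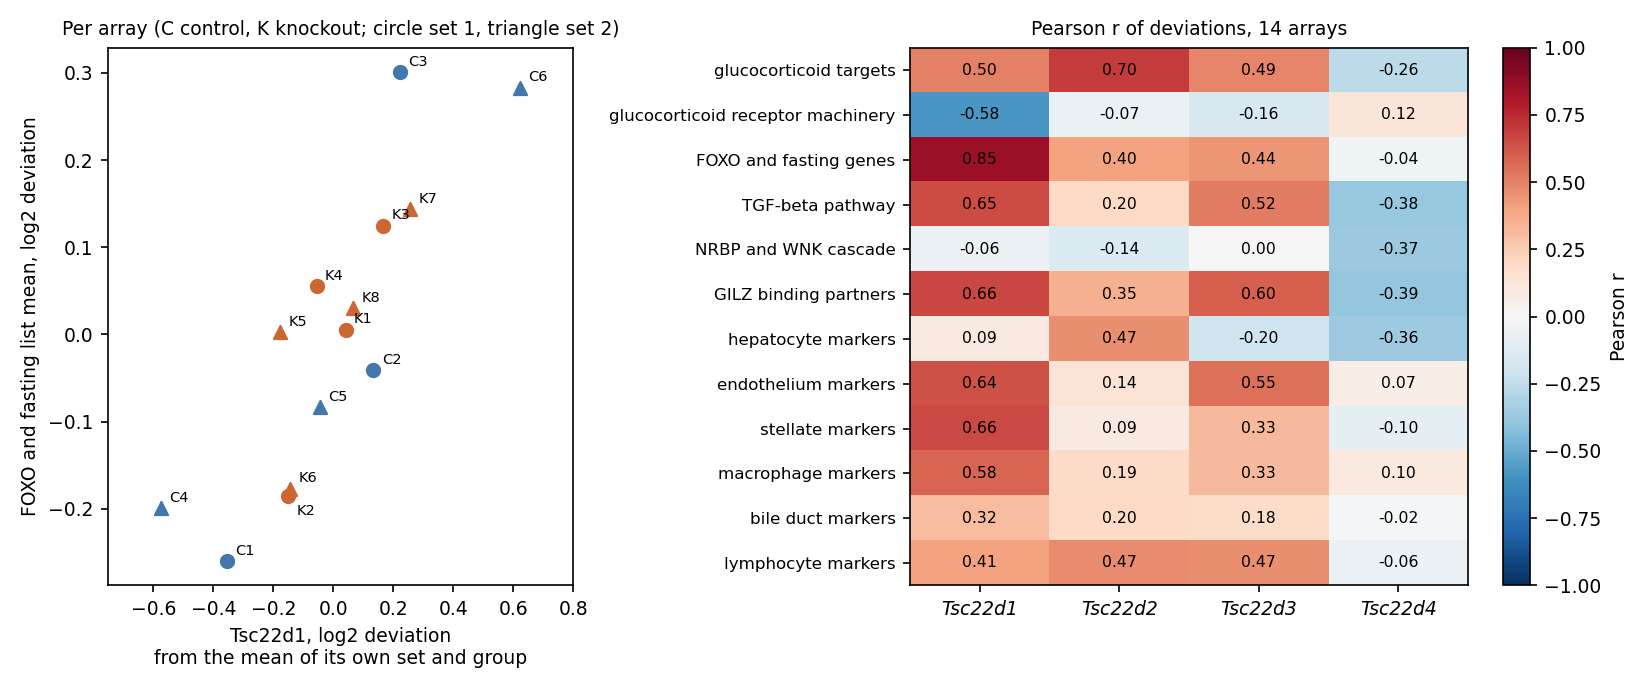
Left, each array's deviation of Tsc22d1 from the mean of its own set and group (log2, horizontal axis) against that of the FOXO and fasting list mean (log2, vertical axis). Right, Pearson r over the 14 arrays between each TSC22 gene (columns) and each list mean (rows); the darkest cell is Tsc22d1 with the FOXO and fasting genes, at 0.85.

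The genes whose deviations were most like each member's were ranked by Pearson r over the 14 arrays among genes with a mean level above 6, as a description. For Tsc22d1 they were Nudt7, which encodes a peroxisomal coenzyme A diphosphatase (r = 0.977), Cited2, a transcriptional coregulator gene that is in the FOXO and fasting list (r = 0.917), and Mustn1, a small nuclear protein gene known from muscle (r = 0.896). Nudt7 kept r = 0.922 in set 1, 0.996 in set 2 and 0.945 without controls 1 and 4. Its own knockout difference was -0.14 ± 0.10 and did not pass, so Nudt7 varied with Tsc22d1 between arrays of a group, while its group means differed little. Cited2 was at 0.21 ± 0.11 and Mustn1 at -0.03 ± 0.14, and neither passed. For Tsc22d3 the nearest were Sdr9c7, a short-chain dehydrogenase gene (r = 0.924), Otud3, a deubiquitinase gene (r = 0.873), and Rgs16, a regulator of G protein signalling (r = 0.861). Their r was 0.617, 0.617 and 0.661 without controls 1 and 4. For Tsc22d2 they were Prr12 (r = 0.852), the COPI coat gene Copa (r = 0.848) and the autophagy gene Atg13 (r = 0.842), and for Tsc22d4 the carbohydrate kinase gene Fggy (r = 0.883), the adaptor subunit gene Ap1s1 (r = 0.822) and the mitochondrial NLR gene Nlrx1 (r = 0.819). The 3 nearest genes of each member were different genes for every member, and none of the 12 passed the knockout test.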

How the data were processed

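The deposited table holds log2 values for 22206 rows in 14 arrays, 1 column per sample. RMA and Partek appear, with no version, in the submitters' processing notes; the deposited log2 scale was read from the values (2.13 to 13.8). Aligner or probe build is not given in the sources used here. Arrays give no read depth, so their number limits the precision. The 19572 rows with 1 symbol in the platform annotation were matched by gene ID to RefSeq names, and 2634 rows were unnamed. Where several rows named a gene (55 genes), the brightest on average was kept, leaving 19505 genes.

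Members, lists and tests were chosen with earlier results of these data known. Array sets came from average-linkage clustering of 1 minus Pearson r over all rows. Knockout minus control came from limma 3.58.1 under R 4.3.3 (lmFit, then eBayes), in a model that also held the array set, with 11 residual degrees of freedom, and was adjusted by Benjamini-Hochberg over all genes, at 0.05. Correlations used exact permutation within set and group (Python 3.11.15), adjusted within each family. Values without the 2 arrays farthest from a member's median kept deviations from the means of all arrays. For other left-out arrays the means were taken anew, so these values are not strictly alike. The fits were tested on simulated data. Named were the members, the targeted genes, called list genes (the largest 2 where none passed), 2 neighbours of Tsc22d1 on each side and 3 nearest genes per member; others are marked in the text. Some genes of the lists were not analysed here, and counts are over the measured ones. Knockouts 7 and 8 repeat the description numbers of knockouts 5 and 6; no pair held identical arrays, and alternatives averaged these or left out 7 and 8. Other alternatives covered normalization, moderation, array weights, a dim-gene filter, rows per gene, thresholds, the replicate block, the array sets and left-out arrays. Relations with list means were added after seeing the data.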

Additional observations from a re-analysis of the deposited data

How the results depend on the processing

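Tsc22d1 kept a positive difference under every alternative run, from 0.76 to 1.14. It was called by limma under 8 of 13 alternatives other than single arrays left out. All of these refit the contrast on which the family was chosen, so the calls are no separate support. The cause of the changes below was not tested. The number of members called was 0 without the set term, without knockouts 7 and 8, in set 1 alone and in set 2 alone, and 2 with trended and robust moderation, which added Tsc22d3. Over all genes the count of 137 became 0 without the set term, 325 with trended and robust moderation, 222 without dim genes, 67 with the repeated numbers averaged, 12 without knockouts 7 and 8, 26 without controls 1 and 4, 18 and 242 at thresholds of 0.01 and 0.1, and 2 in each set alone. With each array left out in turn it ran from 44 (without control 4) to 132.

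No pairing by replicate number was visible: deviations of equal numbers correlated at 0.0142 to 0.0788, and 0 of 6 controls correlated best with its own number. Number 4 joined control 4 of set 2 with knockout 4 of set 1. The check does not show that the samples were unpaired. With the replicate block and the set term, 0 members and 2 genes were called, Tsc22d1 was at 0.84, the counts of called genes in the glucocorticoid target, receptor machinery and FOXO lists were 0, and the receptor machinery median was -0.000184.

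Those 3 list counts were also 0 without the set term, without knockouts 7 and 8 and in either set alone. Without controls 1 and 4 they were 1, 0 and 0. At the 0.01 threshold the receptor machinery and FOXO counts were 0. The receptor machinery median was -0.0120 without knockouts 7 and 8, and the TGF-beta median was 0.0885 in set 2 alone. With each array left out in turn the glucocorticoid target count was 2 to 4 and the FOXO count 1 to 2. Under the same omission the medians ran from -0.07 to 0.01 for the NRBP and WNK list and from -0.03 to 0.05 for the TGF-beta list.

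The interaction for Tsc22d2 was -0.0597 without knockouts 7 and 8 and -0.0386 without controls 1 and 4. With each array left out it ran from -0.509 to 0.0894 for Tsc22d1, -0.0539 to 0.169 for Tsc22d2 and -0.346 to 0.0337 for Tsc22d3. Without controls 1 and 4 the correlation of Tsc22d1 was -0.263 with Tsc22d3 and -0.237 with Tsc22d4, and that of Tsc22d3 with Tsc22d4 was -0.558. The Tsc22d1 with Tsc22d4 value was -0.0134 without knockouts 7 and 8 and -0.0302 with the repeated numbers averaged, and that of Tsc22d3 with Tsc22d4 was -0.00803 after quantile normalization. With each array left out, ranges were -0.281 to 0.176 for Tsc22d1 with Tsc22d4, -0.490 to 0.194 for Tsc22d3 with Tsc22d4, -0.416 to 0.0541 for Tsc22d2 with Tsc22d4, and 0.293 to 0.598 for Tsc22d1 with Tsc22d2, which passed without knockout 7 (exact permutation, adjusted p = 0.0428). The Tsc22d1 correlation with the FOXO list was 0.807 without controls 1 and 4 and 0.836 without knockouts 7 and 8, where it did not pass, and 0.787 to 0.896 with each array left out.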
